A study of Mus musculus with 8 samples.

Results

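The STAT, IRF and SOCS regulators examined here are 9 genes of cytokine and interferon signalling: Stat3, Stat5b, Irf1, Irf2, Irf7, Irf8, Irf9, Socs1 and Socs3. Each was represented by the brightest of the probe sets whose annotation named that gene alone. 8 of the 9 genes had such a probe set, among 8252 named genes of the array, and Irf2 had none and was not measured. The samples were livers of 8 female Ames dwarf mice, homozygous for the df mutation, with RNA from every liver read on a separate Affymetrix U74Av2 array, which measures transcripts with sets of short oligonucleotide probes. All 8 mice were calorie-restricted, at 30% less food than female dwarf mice with free access to it took, and their age when killed was 24 to 26 months. All are in 1 group, so the comparisons were between individual mice, and the data hold no contrast of diet or genotype. Mice homozygous for df make no growth hormone, prolactin or thyrotropin.

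Cytokines and hormones bind receptors that carry Janus kinases, which phosphorylate STAT proteins so that they pair, enter the nucleus and activate genes. In liver, STAT3 carries the interleukin 6 signal that drives the acute phase response, and STAT5B carries the growth hormone signal that sets the sex pattern of many hepatocyte genes. Interferon gamma acts on genes with gamma-activated sites (GAS) and induces IRF1. Type I interferons act through a complex that holds IRF9 on interferon-stimulated response elements (ISRE). SOCS1 and SOCS3 are induced by these same signals and inhibit them, SOCS1 mainly those of interferon and SOCS3 mainly those of interleukin 6.

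Promoter sequence was available for all 9 genes (13 promoters, each from 250 bases before to 50 bases after an annotated start, from RefSeq, build GRCm38.p6). The GAS letters TTCNNNGAA, which read the same on both strands, were found in 4 of the 9 genes, beside 9.55% of 27025 mouse genes, or 8.3% of 32851 promoters of that length. The ISRE core GAAANNGAAA, searched on both strands, was found in 2 of the 9 genes, beside 3.99% of those genes, or 3.44% of the promoters. The 4 stretches below are from the measured genes that held a match, and are shown because 3 of these genes (Irf1, Irf8 and Socs1) varied together over the 8 livers. Capitals mark the match.
Irf1, GAS, chr11:53769888-53769968, plus strand: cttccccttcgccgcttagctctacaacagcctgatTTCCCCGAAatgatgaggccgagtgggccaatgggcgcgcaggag
Irf8, GAS, chr8:120736151-120736231, plus strand: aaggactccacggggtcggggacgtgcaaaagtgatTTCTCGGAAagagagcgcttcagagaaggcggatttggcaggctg
Socs3, GAS, chr11:117969476-117969556, minus strand: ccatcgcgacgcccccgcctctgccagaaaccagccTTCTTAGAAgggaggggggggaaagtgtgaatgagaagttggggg
Socs1, ISRE core, chr16:10785574-10785655, minus strand: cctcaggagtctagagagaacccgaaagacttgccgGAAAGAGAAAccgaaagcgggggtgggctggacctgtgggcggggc
The matches began 90 bases (Irf1), 171 bases (Irf8), 154 bases (Socs3) and 83 bases (Socs1) before the start. Irf8 held a further GAS match 153 bases before its start. A second ISRE core of Socs1, 77 bases before its start, overlapped the first. Irf2 held 1 match of each kind. The windows of Stat3, Stat5b, Irf7 and Irf9 held neither run of letters. A match of letters is a description and was not tied to binding by any measurement here.

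The deposited value was a linear intensity per probe set, already scaled between arrays. Values below 37.2, the 25th percentile over all arrays, were raised to this floor, and 6265 probe sets (4869 named genes) whose mean reached 165.2, the median of all values, were tested on the log2 scale. 6 of the 8 measured regulators passed this filter. Stat5b and the brighter probe set of Socs3 did not and are described only. As a check of RNA quality, the ratio of the 3′ to the 5′ control probe set of Gapdh was 2.67 in mouse 5 and 0.794 to 1.07 in the other 7 mice, and that of beta-actin was 1.45 to 1.998. With 1 array per mouse, differences between mice include the technical spread. In whole liver, fewer cells of a type and less RNA per cell cannot be told apart.

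The interferon regulatory factors Irf1, Irf7, Irf8 and Irf9 and the inhibitor Socs1 shared 1 profile over the 8 livers, highest in mouse 6, next in mouse 8 and lowest in mouse 4 or mouse 7. Irf1, a transcription factor that activates antigen presentation and GTPase genes, had an intensity of 3402 in mouse 6 and 1635 in mouse 8 (probe set 102401_at). Mice 3, 1 and 2 read 1224, 1164 and 848. In mice 7, 5 and 4 it read 637, 611 and 591. Mouse 6 was thus 5.76-fold above mouse 4 and 2.08-fold above mouse 8, and the 3 lowest mice lay close together.

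Socs1, which blocks Janus kinases below the interferon receptors, followed nearly the same order (92832_at). Mice 6 and 8 read 1179 and 566, followed by mice 1, 3 and 2 at 379, 311 and 272. Mice 5, 4 and 7 were lowest, at 185, 181 and 177. The highest value was 6.66-fold the lowest and 2.08-fold the second highest, as wide a step as in Irf1.

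Irf7, the factor that amplifies type I interferon production, had the widest range of the 6 tested regulators (104669_at). Mice 6, 8, 2 and 3 read 1628, 993, 672 and 523. The other 4 mice read 418 (mouse 1), 253 (mouse 5), 225 (mouse 4) and 221 (mouse 7). The highest value was 7.37-fold the lowest, and mouse 2 stood above mice 1 and 3 here but below both for Irf1 and Socs1. The second Irf7 probe set, 162202_f_at, was also highest in mouse 6 (399) but lowest in mouse 4 (171), a 2.33-fold range. It correlated with the first at r = 0.881 over 8 mice (0.775 without mouse 6). Probe sets whose names end in f share probes within a gene family, so that reading is uncertain.

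Irf9, the DNA-binding part of the type I interferon complex, covered a smaller range (103634_at). Mice 6 and 8 read 956 and 743, then mice 3 and 2 674 and 637. Mice 1, 5, 7 and 4 read 486, 464, 435 and 404. The range was 2.37-fold, and mice 2 and 3 lay nearer to mouse 8 than to the other 4.

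Irf8, a factor of macrophage and dendritic cell development, was likewise led by mice 6, 8 and 3, at 1060, 595 and 433 (98002_at). The other 5 mice lay between 253 (mouse 4) and 339 (mouse 1). Mouse 6 was 1.78-fold above mouse 8 and 4.19-fold above mouse 4.

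Stat3 did not share this profile apart from its highest mouse (99099_at). Mouse 6 read 1821, ahead of mice 1, 2 and 5 at 1295, 1200 and 1156. Mice 3, 7, 8 and 4 read 1044, 1029, 1028 and 980. Mouse 8, second for the interferon factors, was thus among the 3 lowest on this Stat3 probe set, level with mouse 7. The second Stat3 probe set (99100_at) read 1618 in mouse 6 and 806 to 968 in the other 7 mice. The 2 probe sets correlated at r = 0.833, with a Spearman rho of 0.0476, and at r = -0.161 without mouse 6, so beyond that mouse they did not order the livers alike.

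Both dim members are given as readings without a test. Stat5b, the growth hormone effector, had a median of 147 and a 1.83-fold range between mouse 4 at 104 and mouse 1 at 190 (92199_at). Mouse 6, at 144, lay in the middle of the group. Socs3, which binds the interleukin 6 receptor subunit gp130, had a median of 114, with mice 6 and 8 at 292 and 162 and the other 6 between 71.0 and 123 (162206_f_at, a family probe set). Of its second probe set (92232_at), 5 mice were under the floor, mouse 1 was at 37.8, and mice 6 and 8 were at 297 and 84.3. Both Socs3 probe sets thus had mouse 6 highest and mouse 8 second, and they correlated at r = 0.907 (0.694 without mouse 6).

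**Figure D1:**
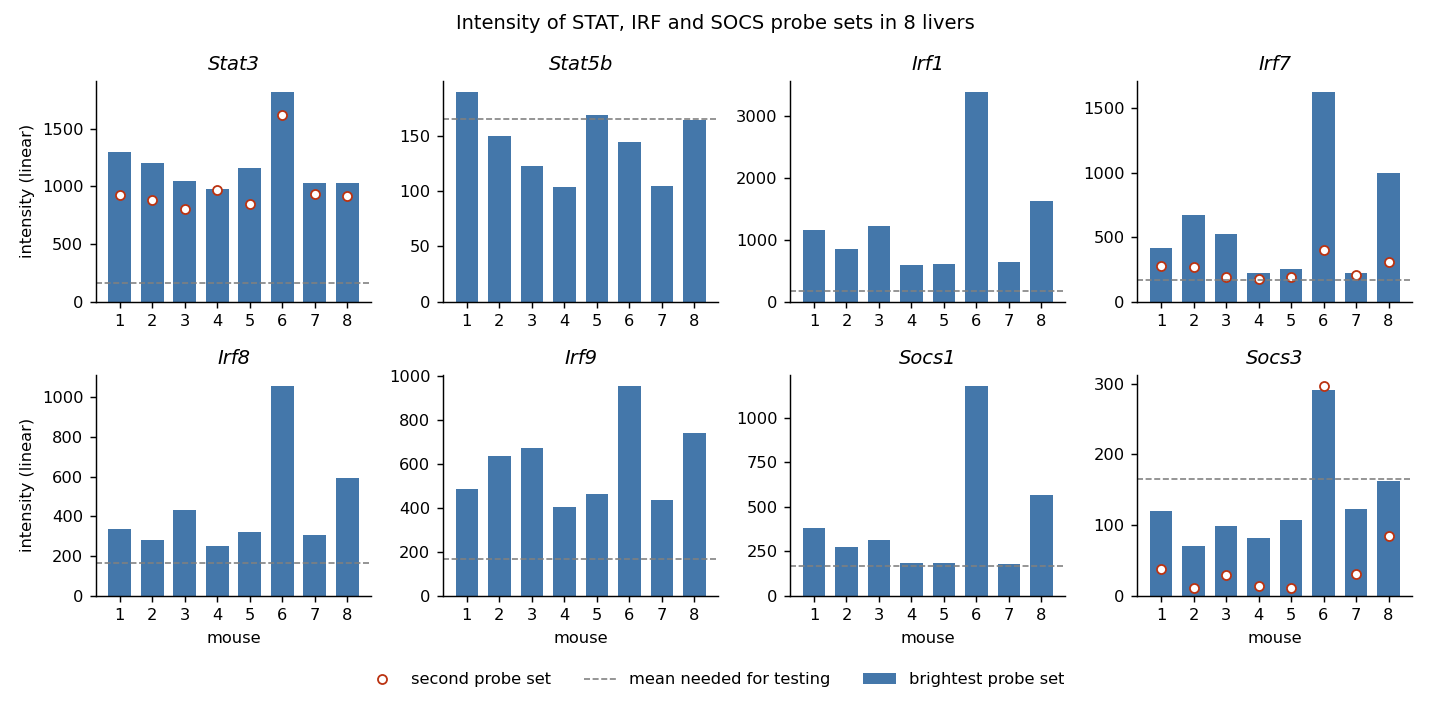
Linear intensity (vertical axis) of each measured regulator in mice 1 to 8 (horizontal axis), with bars for the brightest probe set, open circles for a second probe set and a dashed line at the mean of 165.2 needed for testing. Vertical scales differ between genes. Irf1, Irf7, Irf8, Irf9, Socs1 and Socs3 were highest in mouse 6 and second highest in mouse 8, Stat3 was highest in mouse 6 only, and Stat5b was highest in mouse 1.

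Whether a gene varied between mice more than genes of its brightness was tested with an F test. It set the variance over the mice against the variance limma expected at that brightness, with Benjamini-Hochberg adjustment over all 6265 probe sets. 0 of the 6 tested regulators passed at an adjusted p of 0.05, as did 0% of the 4869 genes. The expected variance was taken from these same probe sets, with only 3.802 prior degrees of freedom, so even a large F gave a large adjusted p. The 0 therefore does not show that the regulators varied no more than other genes. At an unadjusted p under 0.05, 4 of the 6 passed, beside 5.65% of all genes. These were Irf7 (F = 23.1, unadjusted p = 0.00544, adjusted p = 0.432, limma), Irf1 (F = 18.7, unadjusted p = 0.00794, adjusted p = 0.507), Socs1 (F = 14.7, unadjusted p = 0.0122, adjusted p = 0.572) and Irf8 (F = 8.82, unadjusted p = 0.0298, adjusted p = 0.698). Irf9 (SD of 0.43 on the log2 scale, adjusted p = 0.926, limma) and Stat3 (SD of 0.29, adjusted p = 0.989) did not. Without mouse 6, Socs1 (unadjusted p = 0.0506, limma) and Irf8 (unadjusted p = 0.145) were past that limit. In the leave-one-out fits, too, no regulator passed the adjusted threshold.

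The regulators were then compared pair by pair over the 8 mice. Of 15 pairs among the 6 tested genes, 5 passed an exact two-sided permutation test of Pearson's r, run over all pairings of the 8 mice and adjusted over all tested probe sets with the first-named gene. All 5 lay among Irf1, Irf7, Irf8, Irf9 and Socs1. By this test 3.27% of probe sets were called as positively correlated with Irf1, 1.71% with Irf7, 2.01% with Irf9, 2.63% with Socs1 and 0% with Irf8. The adjustment depends on which gene is named first: taken over the second-named gene instead, 4 pairs passed, and Irf1 with Irf8 did not (adjusted p = 0.0621). By the slope in limma's fit, 10 of the 15 pairs passed, which were all the pairs among those 5 genes.

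Irf1 and Socs1 were the closest pair, at r = 0.990 (exact p = 0.000273, adjusted p = 0.0214) and rho = 0.905 (exact p = 0.00456, adjusted p = 0.0907). Without mice 4 and 6, the 2 farthest from the Irf1 median, r was 0.970. In limma's fit Socs1 rose by 1.09 ± 0.08 (slope ± SE, log2 per log2 of Irf1, adjusted p = 0.000427). Socs1 thus changed by about as many log2 units as Irf1 did.

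Irf7 and Irf9 formed the next pair, at r = 0.971 (exact p = 0.000149, adjusted p = 0.0354) and rho = 0.952 (exact p = 0.00114, adjusted p = 0.112). Without mice 6 and 8, r was 0.918. Irf9 rose by 0.40 ± 0.06 per log2 of Irf7 (limma adjusted p = 0.00236), a shallower slope than that of Socs1 on Irf1. Mice 2 and 3 stood above mouse 1 in both genes, unlike in Irf1 and Socs1, where mouse 2 stood below it.

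The other pairs that passed were Irf1 and Irf8 (r = 0.949, rho = 0.905, exact p = 0.000967 and 0.00456, adjusted p = 0.0322 and 0.0907), Irf1 and Irf7 (r = 0.927, rho = 0.857, exact p = 0.00112 and 0.0107, adjusted p = 0.0344 and 0.126) and Irf7 and Socs1 (r = 0.937, rho = 0.905, exact p = 0.000794 and 0.00456, adjusted p = 0.0448 and 0.152). Without the 2 farthest mice their r was 0.820, 0.840 and 0.795. Irf1 and Irf9 (r = 0.910, adjusted p = 0.0528 in the exact test) just missed the threshold. The pairs of Irf8 with Irf7, Socs1 and Irf9 leaned on mice 6 and 8, since r was 0.851, 0.934 and 0.877 with them and 0.381, 0.551 and 0.586 without.

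These calls changed as single mice were left out. The exact test called 2 pairs without mouse 1, 7 without mouse 2, 1 without mouse 5, and 0 without mouse 3, 4, 6, 7 or 8. With 7 mice this test has fewer pairings and so a larger smallest p, and a lost call cannot be tied to the mouse left out. Without mouse 3, for example, Irf1 and Socs1 had r = 0.998 and an exact adjusted p of 0.0616, and limma called 10 pairs. The values of r themselves moved little for most of these omissions. Over all 8 omissions r of Irf1 and Socs1 stayed between 0.974 and 0.998, and that of Irf7 and Irf9 between 0.948 and 0.985. By limma, 8 pairs passed without mouse 4 or mouse 8 and 2 without mouse 6, which were Irf1 with Irf7 (adjusted p = 0.0419) and Irf1 with Socs1 (adjusted p = 0.00932).

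The 5 pairs with Stat3 did not pass either test. Their r was 0.612 to 0.754 over 8 mice (exact adjusted p = 0.854 and limma adjusted p = 0.815 for each), and -0.166 to 0.202 without mouse 6. Socs3 and Stat5b, too dim to test, are described by r alone. Socs3 was closest to Irf8 (r = 0.918) and then to Socs1 (0.829), Irf1 (0.825) and Stat3 (0.693), and without mouse 6 these were 0.750 (Irf8), 0.524 (Socs1), 0.515 (Irf1) and -0.106 (Stat3). Stat5b had an r of 0.222 to 0.406 with each of the other 7 genes. These moved with single mice, since r with Stat3 was 0.783 without mouse 6 and r with Irf8 was 0.0384 without mouse 4.

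**Figure D2:**
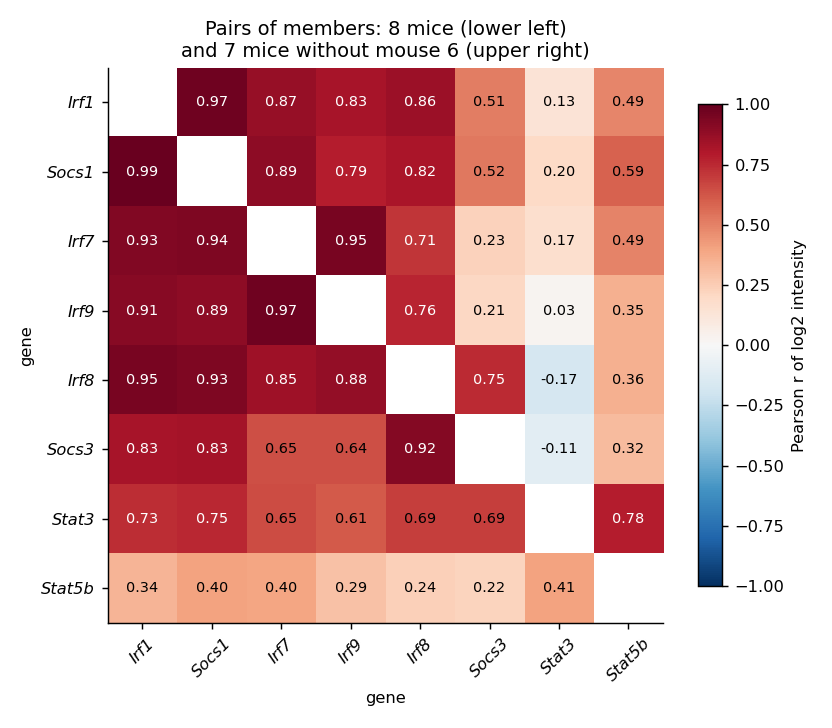
Pearson's r of log2 intensity for each pair of the 8 measured regulators (genes on both axes, colour and number give r), over 8 mice in the lower left triangle and over 7 mice without mouse 6 in the upper right. Irf1, Socs1, Irf7, Irf9 and Irf8 form a block with r from 0.85 to 0.99 over 8 mice. Stat3 with these 5 genes has r from 0.61 to 0.75 over 8 mice (Stat3 row) and between -0.17 and 0.20 without mouse 6 (Stat3 column).

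**Figure D3:**
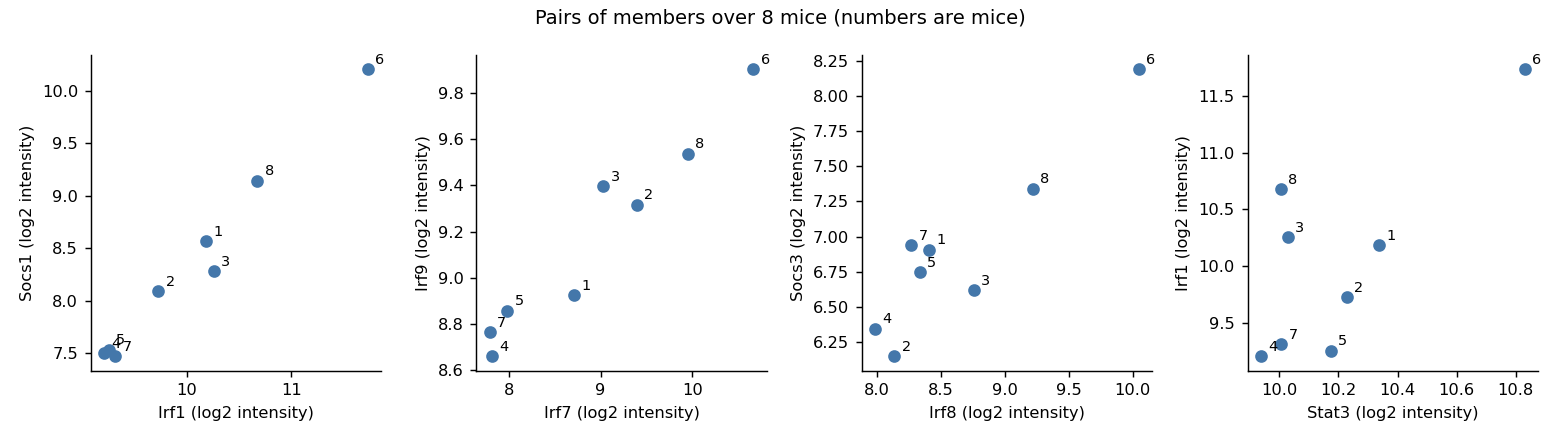
Log2 intensity of 4 pairs of regulators, 1 point per mouse with its number (axes name the genes and do not start at 0). Irf1 with Socs1 and Irf7 with Irf9 order the mice along a line, in Irf8 with Socs3 mice 6 and 8 lie above the other 6, and in Stat3 with Irf1 mouse 6 alone is high in both.

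To place the regulators in their pathway, the log2 intensity of each gene was fitted with limma on that of each tested regulator, and a gene is said to follow the regulator where its slope had an adjusted p under 0.05. With Irf1, 5.26% of 4868 genes followed upward and 2.3% downward. The shares were 5.26% and 2.57% with Socs1, 4.54% and 1.83% with Irf7, 4.5% and 2.16% with Irf8, and 4.09% and 1.56% with Irf9. With Stat3, 0% followed in either direction in limma, where 283 genes had an unadjusted p under 0.05, and the exact test called 0 probe sets, with 295 at an unadjusted p under 0.05. Without mouse 6 the upward shares were 1.83% (Irf1), 1.38% (Socs1), 0.924% (Irf7), 0.678% (Irf8) and 0.657% (Irf9). Of the genes that followed Irf1, 69.6% did so upward, or 59.2% with arrays scaled to a common median, and for Irf7 the split was 71.3% or 61.1%. An exact permutation test of each probe set called 0 probe sets with Irf8 (1296 at an unadjusted p under 0.05), and the second Irf7 probe set gave 7 calls in place of 392, so the counts for Irf7 and Irf8 depend on the test or the probe set.

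Ahead of the STATs in the pathway lie the ligands, receptors and Janus kinases. Their counts stand beside 5.26% of all genes that rose with Irf1 and 2.3% that fell. Of 12 ligand genes with a probe set, 9 were too dim to test. For Ifng, the interferon gamma gene, 7 mice were under the floor and mouse 6 was at 53.6. For Il6, 6 mice were under it, with mice 2 and 6 at 44.3 and 38.5. Of the 3 tested ligands, Csf1, the macrophage growth factor, followed Irf1 (r = 0.799, limma adjusted p = 0.0463; 0.0625 without mouse 6), while Il18 and Gh did not.

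Among the receptors, 2 of 13 tested genes rose with Irf1 and 1 fell (15.4% and 7.69%, beside 5.26% and 2.3% of all genes). Ifngr1, the ligand-binding chain of the interferon gamma receptor, rose with Irf1 (r = 0.911, limma adjusted p = 0.00762), from 187 in mouse 5 to 470 in mouse 8 and 589 in mouse 6. Csf3r, the receptor of the granulocyte growth factor, rose as well (adjusted p = 0.00696), from 610 in mouse 5 to 1596 in mouse 6. Ghr, the growth hormone receptor and the brightest of this list, fell with Irf1 (r = -0.923, adjusted p = 0.0168), from 5135 in mouse 4 to 2771 in mouse 6. None of the 3 passed without mouse 6 (adjusted p of 0.123, 0.247 and 0.178). Il6ra, the interleukin 6 receptor, had the largest F ratio of this list and did not follow Irf1 (r = -0.161). Mice 6 and 5 were lowest, at 125 and 148, and mouse 3 was highest, at 845. Il10rb, a shared chain of interleukin 10 family receptors, did not follow either.

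None of the 4 Janus kinases followed any of the regulators in this fit. With so few genes, that count cannot be told from the share over all genes. Jak1, the brightest, read 1046 to 1347 over the 8 mice (1161 ± 89.0, SD, n = 8). Its closest regulator was Stat3 (r = 0.917, limma adjusted p = 0.815). Jak2 and Tyk2 each ranged less than 2-fold. Of 6 other tested STAT, IRF and SOCS genes only Irf5, a factor of macrophage activation, followed Irf1 (16.7%, beside 5.26% of all genes that rose). As for the kinases, that count cannot be told from the share over all genes. Irf5 was led by mice 6 and 8, at 876 and 626, and mouse 4 was lowest at 228 (r = 0.984, adjusted p = 0.00095; 0.0109 without mouse 6), which places it among the 3 genes of highest r with Irf1. Stat5a (865 ± 112), Stat6, Irf3, Socs5 and Cish did not follow. Of 7 other inhibitors, 3 rose with Irf1 (42.9%, beside 5.26% of all genes). These were the phosphatases Ptpn6 and Ptprc and Usp18, a protease that removes ISG15 and blocks the type I interferon receptor, and without mouse 6 the count was 0. Ptpn1 and Pias2 did not.

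Known targets of interferon gamma and IRF1 rose with these regulators in most cases. Of 24 tested genes of this list, 20 rose with Irf1 (83.3%, beside 5.26% of all genes), with a median r of 0.892 where the median over all genes was -0.056. 20 rose with Socs1, 21 with Irf7, 21 with Irf9 and 15 with Irf8, and 0 fell. Without mouse 6 the counts were 14 (Irf1), 10 (Socs1), 13 (Irf7), 14 (Irf9) and 2 (Irf8). The Irf8 count ranged from 2 to 18 over the omissions, was below 10 without mouse 1, 4, 5, 6, 7 or 8, and was 8 with arrays scaled to a common median. Genes of this list were known from earlier results of these arrays to vary together, so its count is a description.

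Ubd, a ubiquitin-like protein with the largest F ratio of the list, rose by 3.33 ± 0.61 per log2 of Irf1 (limma adjusted p = 0.0139; 0.0209 without mouse 6). The guanylate-binding GTPase Gbp3 was highest in mice 6, 8 and 3, at 6327, 4850 and 2081, and lowest in mouse 7 at 159, and was closest to Irf7 (r = 0.953, adjusted p = 0.00099; 0.0116 without mouse 6). Psmb9, a subunit of the immunoproteasome, was lowest in mouse 7 (312) and highest in mouse 6 (4031) and rose by 1.35 ± 0.10 per log2 of Irf7 (adjusted p = 5.92e-05; 0.000581 without mouse 6). Tap1, which carries peptides to class I molecules, followed both Irf1 (adjusted p = 0.0015) and Irf9 (0.000483), and still did without mouse 6 (0.00932 and 0.00858). The class I heavy chain H2-K1, the brightest of the list and read by a family probe set, ranged only 1.98-fold. It followed Irf7 and Irf9 (adjusted p = 0.0442 and 0.0361) but missed the threshold with Irf1 (0.0548), and without mouse 6 it was called with none of the 3 (0.198, 0.165 and 0.132).

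Of 10 tested type I interferon targets, 7 rose with Irf7 and with Irf9, 6 with Irf1 and with Socs1, and 4 with Irf8. Without mouse 6 these counts were 4, 2, 2, 3 and 0. Over all genes, 4.09% to 5.26% rose with these regulators, and 0.657% to 1.83% without mouse 6. Isg15, a ubiquitin-like modifier, was at 1114 and 759 in mice 6 and 8 and lowest in mouse 5 at 207 (r = 0.942 with Irf7, limma adjusted p = 0.00153; 0.0277 without mouse 6). Ifitm3, a membrane protein that blocks virus entry and the brightest of the list, rose with Irf7 (r = 0.919, adjusted p = 0.0107) and Irf9 (0.917, adjusted p = 0.0139), and it was not called with Irf1 (0.747, adjusted p = 0.0909). The difference between these slopes was not tested. Ifi204, a DNA sensor read by a family probe set, ranged from 154 in mouse 7 to 1069 in mouse 6.

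Known STAT3 targets of the acute phase response followed the interferon factors in part. None was called with Stat3, but neither was any other gene. Of 28 tested genes, 12 rose with Irf1, 9 with Irf7, 9 with Irf8, 7 with Irf9 and 8 with Socs1, and 1 fell with each, which was Hamp, the iron hormone hepcidin. Over all genes, 4.09% to 5.26% rose with these regulators and 1.56% to 2.57% fell. With Stat3 itself 0 rose and 0 fell, beside 0% of all genes, so that count does not set this list apart. Its median r with Stat3 was 0.360, beside -0.035 over all genes. Without mouse 6, 6 rose with Irf1 and with Socs1, 2 with Irf8 and 1 with Irf7 and with Irf9. Hamp was then called with Irf8 only, and Mt1, a metallothionein gene, fell with Irf8 too. With Irf1, the rising and falling genes together numbered 13, and 6, 6, 7 and 8 without mouse 4, 6, 7 or 8.

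Lcn2, a siderophore-binding protein, followed Irf1 (r = 0.924, limma adjusted p = 0.00405; 0.00676 without mouse 6), and so did Saa3, an acute phase serum amyloid (r = 0.818, adjusted p = 0.0454; 0.0131 without mouse 6). Lcn2 and Saa3 both had mouse 8 highest, at 9797 and 12035. In that mouse the 2 Stat3 probe sets read 1028 and 914, where their medians over the 8 mice were 1100 and 921. Hp, haptoglobin and the brightest of the list, did not follow Irf1 (r = 0.103) or Stat3 (r = -0.280), and was highest in mouse 3 at 29120. Hamp fell with Irf8 (r = -0.978, adjusted p = 0.00129; 0.0469 without mouse 6), from 24152 in mouse 4 to 13312 in mouse 8 and 10696 in mouse 6.

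Growth hormone and STAT5 targets were read although Stat5b itself was too dim to test. Of 13 tested genes 1 rose and 3 fell with Irf1 (7.69% and 23.1%, beside 5.26% and 2.3% of all genes). The 3 were the urinary protein gene Mup3 (a family probe set) and the cytochromes Cyp2b9 and Cyp2b13, and the riser was the cell cycle inhibitor Cdkn1a. Cyp2b13 read 718 in mouse 6 and 1916 in mouse 8, against 4729 to 9661 in the other 6 mice, and fell by 1.31 ± 0.17 per log2 of Irf1 (limma adjusted p = 0.0017; 0.0852 without mouse 6). Cyp2b9 showed the same split, with mice 6 and 8 at 2302 and 3118 and the others at 5457 to 8442. Without mouse 6, 0 of these genes fell with Irf1. The list was not split by the direction in which growth hormone acts on each gene, so its counts give no direction for the pathway. Serpina1b, the brightest of the list and read by a family probe set, did not follow Irf1.

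**Figure D4:**
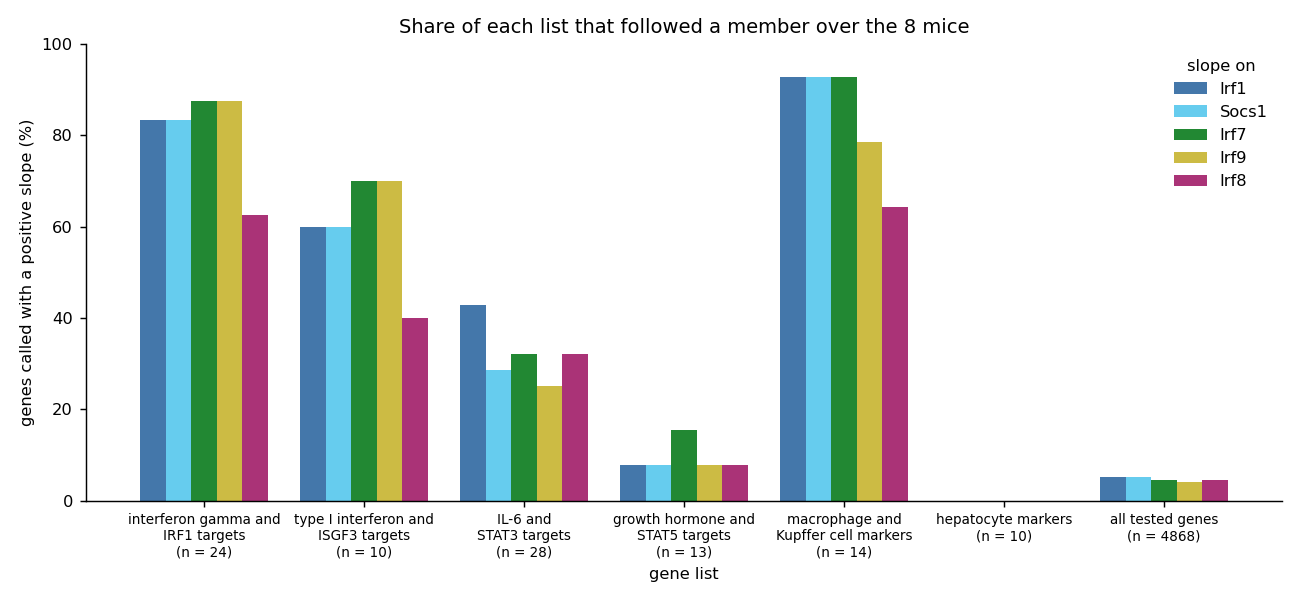
Percentage of each list's tested genes (vertical axis; n under each list) called with a positive slope on Irf1, Socs1, Irf7, Irf9 or Irf8 over the 8 mice, beside the same share of all tested genes at the right. Interferon gamma and IRF1 targets reach 62.5% to 87.5% and macrophage markers 64.3% to 92.9%, and all tested genes are between 4.09% and 5.26%. Hepatocyte markers are at 0, which with so few genes cannot be told from the share of all tested genes.

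Macrophage markers moved with the same regulators. Of 14 tested macrophage and Kupffer cell markers, 13 rose with Irf1, Irf7 and Socs1, 11 with Irf9 and 9 with Irf8. Without mouse 6 these counts were 4 (Irf1), 4 (Irf7), 5 (Socs1), 4 (Irf9) and 1 (Irf8). Over all genes, 4.09% to 5.26% rose with these regulators, and 0.657% to 1.83% without mouse 6. The summed intensity of the 15 such markers with a probe set was 6851 in mouse 4, 7277 in mouse 5 and 7287 in mouse 7, 9875 to 13880 in mice 1, 2 and 3, 27279 in mouse 8 and 43650 in mouse 6. The marker that did not follow was Clec4f, a lectin of resident Kupffer cells, which read 1221 in mouse 6 and 747 in mouse 8 and was highest in mouse 2 at 1362. Cd5l, another macrophage gene, read 2597 in mouse 6 and 386 in mouse 4.

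Other immune cell markers moved in part. Counts with Irf1 in this paragraph stand beside 5.26% of all genes that rose and 2.3% that fell, or 1.83% that rose without mouse 6. Of 7 dendritic cell markers 5 rose with Irf1, including the class II genes H2-Aa, H2-Ab1 and Cd74, which macrophages and B cells express too, and the summed intensity of all 9 with a probe set was lowest in mouse 7 (4104) and highest in mouse 6 (37438). Of 4 tested T and NK cell markers 2 rose, Ccl5 and Ltb, and the sum of all 14 with a probe set was 709 in mouse 5 and 4004 in mouse 6, while Cd3d, Cd8a, Cd8b1, Cd2 and Prf1 were under the floor in all 8 mice. Ccl5, a chemokine, was under the floor in mice 2, 4, 5 and 7 (15.1 to 30.0), so its slope rests partly on floored values. Ccl5 made up 2069 of the T and NK sum in mouse 6 and 1685 of 3517 in mouse 8. In these mice Cd4 read 235 and 259, against 90.1 to 345 in the others. Only 2 of 11 neutrophil markers with a probe set were tested, and both rose, while Mmp9 was under the floor in all mice. The sum of the 11 was 1419 in mouse 7 and 3077 in mouse 6. In mouse 8 it was 1691, below mice 1, 2 and 3 (1876, 1702 and 1701). Of 8 stellate cell and matrix markers 2 rose. Without mouse 6 the counts were 0 (neutrophil), 1 (stellate cell, Col1a1), 4 (dendritic cell) and 2 (T and NK cell). 0 of 10 hepatocyte markers followed Irf1, while Fabp1, a fatty acid carrier, fell with Irf7, Irf8 and Irf9 (limma adjusted p = 0.0453, 0.0477 and 0.0403) but not without mouse 6 (0.414, 0.495 and 0.385). The hepatocyte sum was lowest in mouse 6 (126653) and highest in mouse 5 (184475). 0 of 4 B cell and 0 of 4 endothelial markers rose. With so few genes, these counts of 0 and that of the hepatocyte markers cannot be told from the share over all genes. Of the tested genes, Usp18, Cd14, Csf3r and Cish each stand in more than 1 list. The part of cell numbers in the profile of the regulators was not tested.

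**Figure D5:**
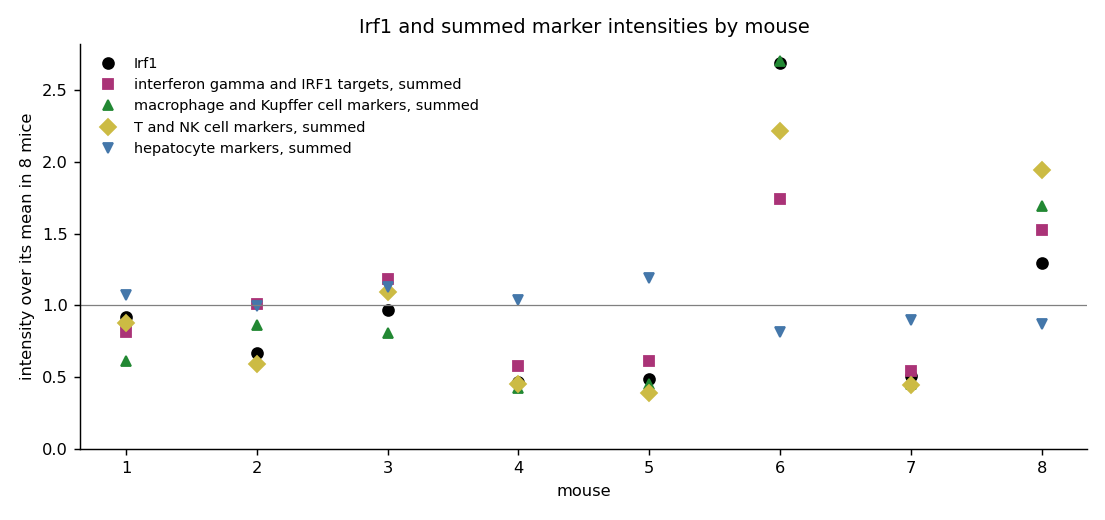
Intensity of Irf1 and summed intensity of 4 gene lists in each mouse, divided by the mean over the 8 mice (vertical axis; horizontal line at the mean). The sums of interferon gamma targets, macrophage markers and T and NK cell markers are highest in mice 6 and 8, like Irf1, and that of hepatocyte markers is lowest in mouse 6.

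The genes most like each regulator were named by r over the 8 mice, as a description, since they were picked for it. For Irf1 these were Selplg (r = 0.987), a selectin ligand of leukocytes, Snx10 (0.984) and Irf5 (0.984). For Socs1 they were Pirb (0.993), an inhibitory receptor of myeloid cells, Selplg (0.986) and Kif22 (0.983). For Irf8 they were Nfkbiz (0.987), a nuclear regulator of NF-kappa B target genes, Lilr4b (0.983), another inhibitory receptor of myeloid cells, and Tgif1 (0.982). For Lilr4b, mouse 6 was at 1840, mouse 8 at 661 and the other 6 mice at 125 to 236.

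For Irf9 the genes most alike were Uba7 (r = 0.994), the enzyme that activates ISG15, Usp18 (0.989), which removes it, and Psmb9 (0.978). Uba7 was led by mice 6, 8, 3 and 2, at 1249, 967, 739 and 694, and ordered all 8 mice as Irf9 did. For Irf7 they were Usp18 (0.985), the complement gene C1qb (0.984) and Gbp7 (0.983). Usp18 was thus among the 3 closest genes of both Irf7 and Irf9.

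For Stat3 the closest genes were Ube2s (r = 0.946), Tpra1 (0.944) and Dbndd2 (0.919). Each of them ranged less than 2-fold and had mouse 6 highest. At the other end, the gene of lowest r was H2az2 for Stat3 (-0.966), Pabpc4 for Irf1 (-0.977), Tpd52l1 for Irf7 (-0.984) and Polg2 for Irf9 (-0.979). For Irf8 it was Aldh3a2 (-0.982), a fatty aldehyde dehydrogenase with mice 6 and 8 lowest at 2048 and 2805 and the others at 3924 to 5156. For Socs1 it was Hsd17b4 (-0.973), an enzyme of peroxisomal fatty acid oxidation with mice 6 and 8 lowest at 2829 and 3481 and the others at 4654 to 6486.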

How the data were processed

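RNA from 8 livers was measured on 1 array each. The authors deposited 1 linear intensity per probe set and array, and their trimmed mean (2% off either end) lay between 499.4 and 499.7 on all arrays, so they were taken as scaled beforehand. The name and version of the probe summary software are not given in the sources used here.

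Values were floored at 37.2, put on the log2 scale and filtered at a mean of 165.2, and 66 control probe sets were left out. Annotation gave 1 symbol for 10855 probe sets (controls included), several for 396 and none for 1237, and genes were named only from the first kind. Spread was tested by a one-sided F test (limma 3.58.1 in R 4.3.3, squeezeVar with robust trend, 3.802 prior degrees of freedom), slopes by lmFit and eBayes with trend and robust options, and pairs by exact permutation in Python 3.11.15, each adjusted by Benjamini-Hochberg over all tested probe sets. The methods were tried on simulated data, with independent normal noise of the same spread for every probe set. That setting does not cover genes that share 1 high mouse, so it does not bear on slopes that lean on mouse 6. Alternatives changed the filter, scaling, floor, test, probe set and mice. For pairs, the limma slope and the adjustment over the second-named gene were added after the data were seen. Another scaling moved the array medians by -0.09 (mouse 5) to 0.05 (mouse 6) on the log2 scale. The members and lists were chosen with earlier results of these data known. Named genes were the 9 members, the 3 genes of highest r and the 1 of lowest r with each tested member, and from each pathway list the brightest gene and up to 2 of largest F ratio. Genes named beside these (Ifng, Il6, Gh, Ifngr1, Csf3r, Stat6, Irf3, Cish, Ptpn6, Ptprc, Tap1, Hamp, Mt1, Mup3, Cdkn1a and the cell markers) were picked after their values were seen.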

Additional observations from a re-analysis of the deposited data

Results flagged for a closer look

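Of 59 items (11 probe sets of the regulators, 46 other named genes and 2 RNA quality ratios), 10 had 1 mouse far from the other 7, judged by its gap to the nearest mouse over the whole range of log2 intensities (of plain ratios for RNA quality). Chance flags about 1 in 20 of groups that were not chosen for their values. Many of these genes were chosen for theirs, by their r with a regulator or by a large spread, so that rate does not apply to them. In 6 of the 10 the mouse was mouse 6 and it was highest. These were both Stat3 probe sets (a gap of 0.550 of the range for 99099_at and 0.737 for 99100_at), the dimmer Socs3 probe set 92232_at (0.606), and the 3 genes closest to Stat3, Ube2s (0.536), Tpra1 (0.570) and Dbndd2 (0.637), which share the high value of mouse 6 through that choice. Irf1, Irf7, Irf8, Irf9 and Socs1 were not among them, since mouse 8 lay between mouse 6 and the rest.

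In the other 4 a different mouse stood apart. Pias2, an inhibitor of STAT proteins, was lowest in mouse 3 (0.695), at 317 against 505 to 620 in the others. Ptpn1, a phosphatase acting on Janus kinases, was lowest in mouse 5 (0.643), at 111 against 370 to 721. Hp was highest in mouse 3 (0.565). The Gapdh ratio of 3′ to 5′ signal was highest in mouse 5 (0.854).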

How the results depend on the processing

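No paired analysis was possible because the 8 mice form 1 group. Counts of tested probe sets that followed a regulator were 459 (Irf1), 392 (Irf7), 398 (Irf8), 351 (Irf9), 471 (Socs1) and 0 (Stat3). Without the brightness filter they were 285 (Irf1), 136 (Irf7), 23 (Irf9) and 307 (Socs1), and of the lists read against Irf1, 8 interferon gamma targets, 3 STAT3 targets, 2 growth hormone targets and 6 macrophage markers were called. That setting tests more probe sets, and the cause of the losses was not tested. The exact permutation test gave 145 (Irf7), 0 (Irf8), 171 (Irf9) and 246 (Socs1). The next brightest probe set gave 7 for Irf7 and 1 for Stat3. Leaving out 1 mouse gave 134 to 488 (Irf1), 58 to 474 (Irf7), 69 to 509 (Irf8), 44 to 425 (Irf9), 109 to 478 (Socs1) and 0 to 0 (Stat3 and the spread test). The lowest counts were those without mouse 6 for all 5 interferon regulators. The Irf7 and Irf8 counts were also lower by over 1.5 times without mouse 8 (206 and 218), as was Irf8 without mouse 4 (248), Irf9 without mouse 4, 7 or 8 (227, 218 and 189) and Socs1 without mouse 4 or 8 (311 and 290). Lists against Irf1, both directions together, gave 14 to 21 interferon gamma targets, 2 to 7 type I targets, 6 to 13 STAT3 targets, 1 to 5 growth hormone targets and 4 to 13 macrophage markers. The pairs that passed numbered 0 to 7 in place of 5 with 1 mouse left out, where the exact test has fewer pairings. They numbered 10 by limma's slope and 4 when adjusted over the second-named gene. The r of Stat3 and Irf8 was -0.166 to 0.853 when 1 mouse was left out, changing sign without mouse 6. Scaling to a common median, quantile normalization, the lower floor and the stricter filter left every one of these counts they apply to within 1.5 times.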
